A study of Mus musculus with 4 samples.

Results

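The genes described here are 9 haematopoietic cytokine receptor genes: Flt3, Csf1r, Csf3r, Csf2ra, Csf2rb, Il7r, Il21r, Il6st and Il1rl1. They were taken by name, 9 of the 32285 genes in the count matrices, and all 9 were found. The assay was CITE-seq, in which each droplet yields the messages of 1 cell and barcodes of the antibodies bound to its surface. The cells were LSK cells (lineage negative, Sca1+, c-Kit+), the compartment that holds haematopoietic stem cells (HSCs) and multipotent progenitors, sorted from fetal livers at E17.5, late in mouse gestation. The control group, called WT, was Bclaf1f/f and carried the floxed Bclaf1 alleles with no Cre. The knockout group, called KO, was Vav-Cre:Bclaf1f/f, with the same floxed alleles and a Cre recombinase under the Vav promoter, which is active in blood cells. Loss of Bclaf1 and presence of Cre cannot be told apart in this design. Each group is 1 library from a pool of 10 embryos, so every KO against WT value below compares 2 libraries, has no replicate check and carries no p-value. All intervals are 95% and cover counting error only.

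Cytokine receptors let progenitors read the growth factors around them. Flt3 and Csf1r encode receptor tyrosine kinases, for FLT3 ligand and for CSF1. Csf3r, Csf2ra, Csf2rb, Il7r, Il21r and Il6st encode chains of the haematopoietin receptor family, which have no kinase of their own and signal through JAK kinases and STAT factors. Il1rl1 encodes ST2, the receptor for interleukin 33, which belongs to the interleukin 1 receptor family and signals through MyD88. In blood formation, FLT3 marks multipotent progenitors on the way to lymphoid and dendritic cells, the interleukin 7 receptor marks lymphoid progenitors, CSF1R and the GM-CSF and G-CSF receptors belong to the monocyte and granulocyte lines, and ST2 is a receptor of mast cells and basophils.

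The cells were split by their surface proteins with the antibody barcodes for CD150 and CD48, so the reads behind the surface gates are these deposited 15-base tags, shown because each gate below is a count of them per cell:
CD150 tag: caacgcctagaaacc
CD48 tag: agaaccgccgtagtt
The CD150+CD48- gate is the one in which HSCs are enriched, and CD150-CD48+ cells are the more advanced multipotent progenitors. The 4 surface gates were cut in each library at its own threshold, 36.3 CD150 and 939 CD48 tag UMIs in WT and 59.0 and 1955 in KO. A UMI is a molecular barcode that counts 1 captured molecule. The CD150+CD48-, CD150-CD48-, CD150+CD48+ and CD150-CD48+ gates held 492, 591, 898 and 3364 WT cells and 244, 414, 531 and 1487 KO cells.

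The 7 lineage gates were cut from messenger RNA, by how many markers of a list a cell held, with none of the 9 receptors among the markers. They held, for WT and KO, 632 and 237 cells in the HSC gate, 425 and 210 in the lymphoid gate, 204 and 161 in the granulocyte-monocyte gate, 107 and 49 in the monocyte or dendritic gate, 67 and 56 in the mast or basophil gate, 95 and 66 in the megakaryocyte gate and 280 and 333 in the erythroid gate. A further 102 and 79 cells passed more than 1 gate, and 3433 and 1485 passed none. Erythroid gate cells gave 10.8% of all WT and 21.6% of all KO gene UMIs, which bears on every value summed over all cells.

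There were 5345 WT cells with 141419013 gene UMIs (median 22734 per cell) and 2676 KO cells with 104358292 (median 34187.5). Bclaf1 itself, the targeted gene, was at 218 CPM (a gene's UMIs per 1000000 gene UMIs) in WT and 75.8 CPM in KO (log2 ratio -1.52). The reads are 3' tags, and whether they lie in the deleted part is not given in the sources used here. The sort markers were present in both libraries: Kit stood at 200.4 and 219.7 CPM and Ly6a, which encodes Sca1, at 12.8 and 9.60 CPM in WT and KO. The libraries' cells share 5 barcodes. From haemoglobin UMIs in lymphoid gate cells, free RNA made up at most 43.5% of the WT and 28.5% of the KO UMIs. The WT bound is loose: Il7r was at 7.45 CPM in WT empty droplets, from 11 UMIs, but had no UMI in the WT CD150+CD48- gate. Low levels in a gate can still be background in part, and that part was not tested.

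Over all LSK cells, Il1rl1 was higher in KO, Il21r was lower in KO, and the other 7 receptor genes stayed inside the limits used here, which are a KO level at least 25% above or at least 20% below the WT level. With genes of at least 20 CPM in either library, 4 of the 9 receptors were measured, with 1 past the upper and 1 past the lower limit. Of all 5480 such genes, 6.15% were past the upper limit and 1.93% past the lower one. Il1rl1, the receptor past the upper limit, reached 20 CPM only in KO (13.8 CPM in WT and 22.1 CPM in KO). Under this cut it could therefore only be called higher. With a mean of at least 5 CPM, all 9 receptors were measured, again with 1 higher and 1 lower, against 7.47% and 2.57% of 9229 genes. The median log2 ratio of the 9 genes was 0.026, beside 0.067 over all genes of that level.

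**Figure D1:**
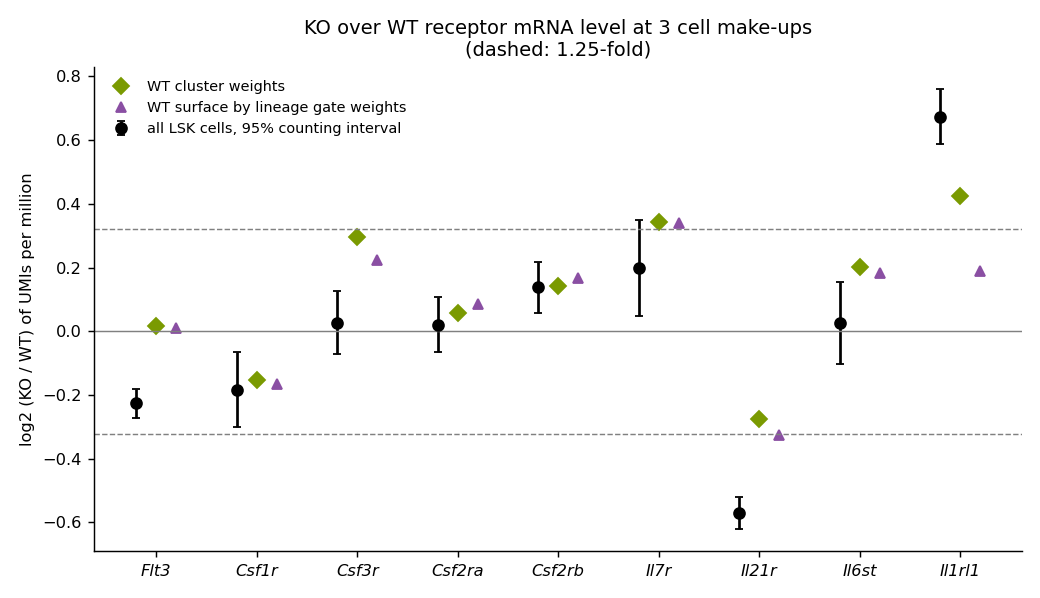
Log2 ratio of KO over WT level (y axis) for each of the 9 receptor genes (x axis) over all LSK cells, with 95% counting intervals (black circles), and with both libraries given the WT make-up of clusters (green diamonds) or of surface by lineage strata (purple triangles). Il21r lies below 0 and Il1rl1 above 0 in all 3, and Flt3 lies at -0.23 over all cells and at 0.018 and 0.011 at the WT make-ups.

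Flt3 (chr5:147330741-147400489, GRCm38.p6), the receptor tyrosine kinase of early multipotent and lymphoid-primed progenitors, followed the surface gates in the same order in both libraries. In WT its level was 26.1 CPM in CD150+CD48- cells, 53.2 in CD150-CD48- cells, 31.7 in CD150+CD48+ cells and 89.8 in CD150-CD48+ cells. In KO it was 20.5 CPM in CD150+CD48- cells, 44.3 in CD150-CD48- cells, 23.8 in CD150+CD48+ cells and 87.2 in CD150-CD48+ cells. The CD150-CD48+ gate was highest and the CD150+CD48- gate lowest in each library, and the lowest pair of gates had overlapping intervals in KO only. Among cells that passed no lineage gate the top of this order turned, with 91.0 and 105 CPM in CD150-CD48- and 86.4 and 86.9 CPM in CD150-CD48+ cells for WT and KO, with overlapping intervals in WT only. CD150-CD48+ over CD150+CD48- gave a log2 ratio of 1.78 (95% interval 1.59 to 1.98) in WT and 2.09 (95% interval 1.86 to 2.33) in KO. Within the CD150-CD48+ gate, CD34+ cells held 97.2 and 96.5 CPM in WT and KO and CD34- cells 43.5 and 27.6 CPM. So the CD34- cells of this gate held less Flt3 message in both libraries, and the KO level was the lower one among them, with a log2 ratio of -0.66 (95% interval -0.89 to -0.42).

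By lineage, Flt3 was highest in the lymphoid gate, at 159 CPM (WT) and 177 CPM (KO), and next in the monocyte or dendritic gate, at 118 CPM (WT) and 92.5 CPM (KO). HSC gate cells held 55.2 and 71.0 CPM and granulocyte-monocyte gate cells 49.9 and 37.4 CPM. The erythroid gate was lowest in both libraries, at 7.78 and 3.77 CPM. After every cell was thinned to 8000 UMIs, a Flt3 UMI was found in 69.6% of WT and 77.6% of KO cells of the lymphoid gate, in 31.0% of WT and 32.5% of KO cells of the HSC gate and in 2.14% of WT and 3.30% of KO cells of the erythroid gate. Unthinned, these shares were 92.9% and 96.7%, 46.5% and 61.6% and 13.9% and 11.7% for WT and KO. The erythroid gate is given for comparison as a cell type not known for Flt3.

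Summed over all LSK cells, Flt3 stood at 70.1 CPM (95% interval 68.7 to 71.5, 9912 UMIs) in WT and 59.9 CPM (95% interval 58.5 to 61.4, 6254 UMIs) in KO, a log2 ratio of -0.23 (95% interval -0.27 to -0.18). That ratio moved to 0.018 at the WT cluster make-up, in which each cluster's KO level is weighted by the cluster's share of WT UMIs, and to -0.042 without the erythroid gate cells. Inside gates the values had both signs: the log2 ratio was 0.36 (95% interval 0.18 to 0.55) in the HSC gate and 0.16 (95% interval 0.046 to 0.27) in the lymphoid gate, but -0.41 (95% interval -0.64 to -0.19) in the granulocyte-monocyte gate and -1.04 (95% interval -1.46 to -0.63) in the erythroid gate. The differences between gates were not tested. Flt3 in empty droplets was at 68.4 CPM in WT and 25.7 CPM in KO, from 101 and 12 UMIs, and the part of free RNA in the erythroid gate values was not tested.

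**Figure D2:**
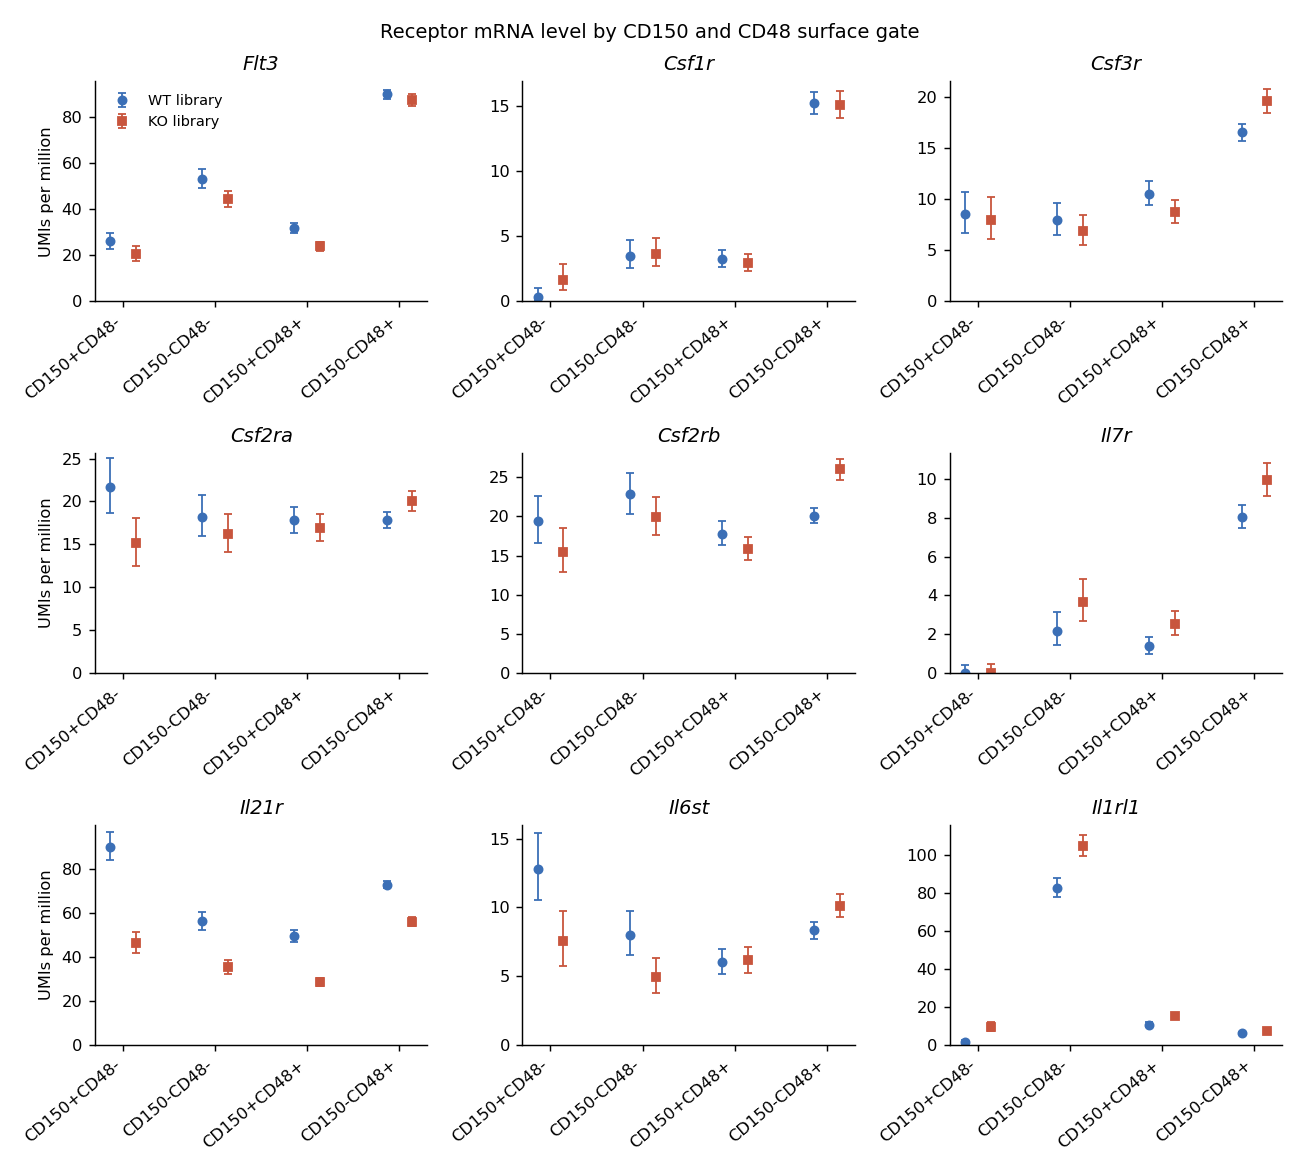
Level of each receptor gene in CPM (y axis, from 0) in the 4 CD150 and CD48 surface gates (x axis), for the WT (blue circles) and KO (red squares) libraries, with exact Poisson 95% intervals. Flt3, Csf1r, Csf3r and Il7r are highest in CD150-CD48+ cells of both libraries, Il1rl1 is highest in CD150-CD48- cells at 82.9 and 105, and Il21r is lower in KO in all 4 gates.

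Il7r (chr15:9506159-9529941), the interleukin 7 receptor alpha chain needed for lymphoid growth, was not detected at the HSC end of the LSK compartment and was highest at the lymphoid end. No Il7r UMI was seen in the CD150+CD48- gate of either library, where 3 counts would be 0.346 CPM in WT and 0.384 CPM in KO. CD150-CD48+ cells held 8.05 CPM (WT) and 9.93 CPM (KO), at least 23.3-fold and 25.9-fold higher than that floor of 3 counts over the gate. The remaining gates lay between, at 2.18 and 3.64 CPM in CD150-CD48- and 1.38 and 2.52 CPM in CD150+CD48+ cells for WT and KO.

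The lymphoid gate held 44.8% of WT and 54.3% of KO Il7r UMIs, with 6.52% and 6.13% of all gene UMIs. Its Il7r level was 38.4 CPM (WT) and 56.9 CPM (KO), a log2 ratio of 0.57 (95% interval 0.35 to 0.78). Among lymphoid gate cells thinned to 8000 UMIs, an Il7r UMI was found in 16.7% (13.3 to 20.6) of WT and 26.7% (20.8 to 33.2) of KO cells, and unthinned in 32% and 41.0%. In the HSC gate 1 Il7r UMI was seen in WT and 0 in KO. A second site of Il7r was the mast or basophil gate, at 27.3 CPM (WT) and 38.2 CPM (KO), from 36 and 47 UMIs, where the KO over WT interval included 0. In that gate 26.9% of WT and 28.6% of KO cells held an Il7r UMI. In LSK cells as a whole Il7r stood at 5.59 CPM (95% interval 5.21 to 5.997, 791 UMIs) in WT and 6.42 CPM (95% interval 5.94 to 6.93, 670 UMIs) in KO, a log2 ratio of 0.20 (95% interval 0.048 to 0.35). At the WT cluster make-up it was 0.34, which is past the 25% limit, so a call for Il7r depends on the make-up of the cells.

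Il21r (chr7:125603252-125634397), the interleukin 21 receptor chain, a partner of the common gamma chain best known from T, B and NK cells, was lower in KO in all 4 surface gates and all 7 lineage gates, with 2 lineage gates whose intervals included 0. As a sum over all LSK cells it stood at 67.3 CPM (95% interval 65.9 to 68.6, 9515 UMIs) in WT and 45.3 CPM (95% interval 44.0 to 46.6, 4730 UMIs) in KO. The log2 ratio of -0.57 (95% interval -0.62 to -0.52) ranked 14 from the lowest of the 5480 genes. Thinned to equal depth, an Il21r UMI was held by 42.4% (41.1 to 43.8) of cells in the WT library and 32.6% (30.8 to 34.4) in the KO library. Unthinned, the shares were 71.1% and 66.1%. The erythroid gate, given for comparison as a cell type not known for this gene, had 5% and 3.60% after thinning, at the same 8000 UMIs per cell.

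By surface gate the WT level was 89.9 CPM in CD150+CD48- cells, 56.2 in CD150-CD48- cells, 49.4 in CD150+CD48+ cells and 72.7 in CD150-CD48+ cells. The KO level was 46.2 CPM in CD150+CD48- cells, 35.4 in CD150-CD48- cells, 28.5 in CD150+CD48+ cells and 55.9 in CD150-CD48+ cells. In WT the CD150+CD48- gate was highest, and in KO the CD150-CD48+ gate was, with no overlap of intervals between neighbouring gates in either library. This order depends on the gating: with cuts from 2 Gaussian components, CD150-CD48+ over CD150+CD48- in KO was -0.017. Among cells that passed no lineage gate, the CD150-CD48- gate was highest in both libraries, at 103 and 83.2 CPM, and the CD150-CD48+ gate was at 73.1 and 61.0 CPM in WT and KO. The KO over WT log2 ratio was largest in size in CD150+CD48- cells, at -0.96 (95% interval -1.14 to -0.78), and smallest in CD150-CD48+ cells, at -0.38 (95% interval -0.44 to -0.32). In the CD150+CD48- gate, 15 WT and 48 KO cells passed the erythroid gate, and the summed level of the 13 erythroid markers was 232 and 843 CPM. Among CD150+CD48- cells that passed no lineage gate, Il21r was at 87.7 CPM (WT) and 73.5 CPM (KO), a log2 ratio of -0.25 (95% interval -0.58 to 0.064), and in the HSC gate it was at 100.2 CPM (WT) and 89.9 CPM (KO), a log2 ratio of -0.16 (95% interval -0.31 to -0.0061). Both are smaller in size than in the surface gate as a whole. Split by the CD201 tag, CD201+ cells of the gate held 95.5 and 46.4 CPM and CD201- cells 67.7 and 45.6 CPM in WT and KO.

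By lineage, Il21r was highest in the lymphoid gate, at 123 CPM (WT) and 99.7 CPM (KO), and next in the HSC gate. In KO these neighbours had overlapping intervals. The log2 ratio was -0.30 (95% interval -0.44 to -0.16) in the lymphoid gate, -0.91 (95% interval -1.19 to -0.63) in the granulocyte-monocyte gate, -1.28 (95% interval -1.71 to -0.86) in the erythroid gate and -2.22 (95% interval -3.53 to -1.10) in the mast or basophil gate. The mast or basophil value rests on 40 and 8 UMIs. In the megakaryocyte and the monocyte or dendritic gates the intervals included 0, at -0.24 (95% interval -0.67 to 0.19) and -0.31 (95% interval -0.90 to 0.25). Cells that passed no gate held 72.9 CPM (WT) and 58.2 CPM (KO), a log2 ratio of -0.32 (95% interval -0.39 to -0.26).

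Il21r was lower in KO in 17 of the 17 clusters that held at least 20 cells in each library, with 13 intervals below 0. The clusters were made from both libraries together with the receptors left out. These log2 ratios ran from -1.79 to -0.065. In the 3 smaller clusters the intervals all included 0. In the cluster named HSC-like it stood at 113 and 101 CPM in WT and KO, and in a cluster led by the lymphoid genes Ebf1 and Ccr9 at 141 and 118 CPM. The neutrophil-like cluster held 37.5 and 18.9 CPM, and the larger erythroid-like cluster 8.97 and 2.70 CPM. With the WT cluster make-up the log2 ratio was -0.27, no longer past the 20% limit, and with the WT surface by lineage make-up -0.33. The KO level was lower inside clusters, and the difference over all cells was larger in size than at equal make-up. Il21r in empty droplets was at 48.1 CPM in WT and 55.6 CPM in KO, from 71 and 26 UMIs, and the part of free RNA in the gates with low Il21r levels was not tested.

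**Figure D3:**
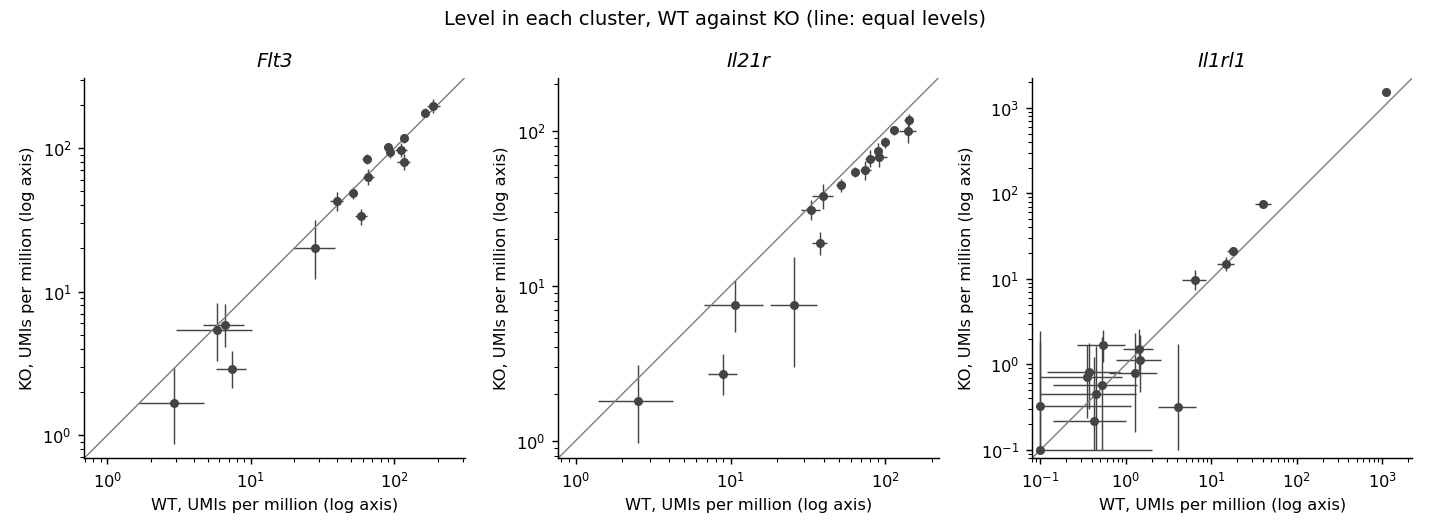
Level of Flt3, Il21r and Il1rl1 in CPM in KO (y axis) against WT (x axis), both on log axes, 1 point for each of the 17 clusters, with exact Poisson 95% intervals and a line of equal levels. Points listed at 0 are drawn at 0.1. All 17 Il21r points lie below the line, and Il1rl1 has 1 point above 1000 in both libraries.

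Il1rl1 (chr1:40404864-40465418), the ST2 chain that binds interleukin 33, was a gene of few cells. The mast or basophil gate, with 67 WT and 56 KO cells, held 68.5% of WT and 63.4% of KO Il1rl1 UMIs. Its level there was 1016 CPM (WT) and 1189 CPM (KO), and 94.0% of WT and 89.3% of KO cells held an Il1rl1 UMI after thinning. The erythroid gate came next, at 16.7 CPM (WT) and 18.2 CPM (KO) with 10.4% of WT and 13.8% of KO cells positive. HSC and lymphoid gate cells were near 0, at 0.452 and 0.343 CPM and 0.542 and 0.313 CPM for WT and KO, from 5 and 2 UMIs in each gate. After thinning, 0.941% of WT and 0.952% of KO cells of the lymphoid gate held an Il1rl1 UMI. Unthinned shares were 97.0% and 96.4% in the mast or basophil gate, 53.6% and 56.5% in the erythroid gate and 1.18% and 0.952% in the lymphoid gate.

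By surface gate the WT level of Il1rl1 was 1.62 CPM in CD150+CD48- cells, 82.9 in CD150-CD48- cells, 10.8 in CD150+CD48+ cells and 6.16 in CD150-CD48+ cells, and the KO level 9.60 CPM in CD150+CD48- cells, 105 in CD150-CD48- cells, 15.3 in CD150+CD48+ cells and 7.61 in CD150-CD48+ cells. The CD150-CD48- gate, which is often used for multipotent progenitors, was highest in both libraries. The summed level of the 14 mast or basophil markers was 3515 and 4226 CPM in that gate and 269.6 and 235 CPM in CD150-CD48+ cells. Among CD150-CD48- cells that passed no lineage gate, Il1rl1 was at 0.532 CPM (WT) and 6.75 CPM (KO), from 2 and 22 UMIs. Of the 22 KO UMIs, 36.4% came from 1 cell. Of the mast or basophil gate cells, 48 WT and 40 KO cells lay in this surface gate.

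Over all LSK cells Il1rl1 stood at 13.8 CPM (95% interval 13.2 to 14.5, 1957 UMIs) in WT and 22.1 CPM (95% interval 21.2 to 23.0, 2304 UMIs) in KO, a log2 ratio of 0.67 (95% interval 0.59 to 0.76), higher than that of 98.9% of the 5480 genes. Il1rl1 entered this set of genes of at least 20 CPM only through its KO level. Inside the mast or basophil gate the log2 ratio was 0.23 (95% interval 0.12 to 0.34) and inside the erythroid gate 0.13 (95% interval -0.10 to 0.36), while the mast or basophil gate held 67 of 5345 WT and 56 of 2676 KO cells and the erythroid gate 280 and 333. At the WT cluster make-up the ratio was 0.43, and at the WT surface by lineage make-up 0.19, which is inside the 25% limit. Without the 147 WT and 144 KO cells of the mast or basophil gate and of the mast, basophil and eosinophil clusters it was 1.06.

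Cells that passed no lineage gate held 1.39 CPM (WT) and 4.71 CPM (KO) of Il1rl1, a log2 ratio of 1.76 (95% interval 1.44 to 2.08), from 124 and 250 UMIs. A cluster led by Ms4a2, Prg2 and Mcpt8, genes of eosinophil and basophil precursors, held 76 WT and 98 KO cells and 40.3 and 75.3 CPM of Il1rl1. Csf2rb, which encodes the beta chain shared by the interleukin 3, interleukin 5 and GM-CSF receptors, was at 57.3 and 105 CPM in the same cluster. The summed level of the 7 eosinophil markers over all LSK cells was 1.05 CPM in WT and 9.55 CPM in KO, and its part in the Il1rl1 difference was not tested beyond the value without these cells.

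Il1rl1 is known to be read from separate promoters in different cell types. The RefSeq promoter table for GRCm38.p6 has 2 start sites for it, and the 250 bases before each are printed because its level differed so widely between lineage gates. Matches to the GATA letters AGATAA or TGATAA, on either strand, are in capitals. GATA factors act in mast, erythroid and megakaryocyte cells. In the megakaryocyte gate Il1rl1 had only 11 WT and 23 KO UMIs. Whether these letters bear on the levels was not tested. The window of Flt3, which was lower in the mast or basophil, erythroid and megakaryocyte gates than in the lymphoid gate, is given for comparison and has no such match.
Il1rl1, upstream start, chr1:40429320-40429569, plus strand: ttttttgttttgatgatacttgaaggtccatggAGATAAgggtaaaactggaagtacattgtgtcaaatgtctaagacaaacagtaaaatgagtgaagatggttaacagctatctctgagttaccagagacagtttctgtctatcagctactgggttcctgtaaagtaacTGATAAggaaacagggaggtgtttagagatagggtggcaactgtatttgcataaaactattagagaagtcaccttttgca
Il1rl1, downstream start, chr1:40439379-40439628, plus strand: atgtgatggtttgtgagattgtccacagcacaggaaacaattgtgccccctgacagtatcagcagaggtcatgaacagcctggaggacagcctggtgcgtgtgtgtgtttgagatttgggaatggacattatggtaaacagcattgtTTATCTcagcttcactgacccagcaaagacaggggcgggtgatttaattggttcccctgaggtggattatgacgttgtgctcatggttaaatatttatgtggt
Flt3, chr5:147400490-147400739, minus strand: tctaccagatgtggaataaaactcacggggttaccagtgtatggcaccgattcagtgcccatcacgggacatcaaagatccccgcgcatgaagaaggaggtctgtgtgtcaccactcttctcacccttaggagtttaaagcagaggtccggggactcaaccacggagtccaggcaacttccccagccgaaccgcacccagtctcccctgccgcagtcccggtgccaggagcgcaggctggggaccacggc

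The upstream Il1rl1 window has 2 GATA matches and the downstream window 1, and 16.6% of all 32851 windows of this length hold at least 1. Windows were found for 7 of the 9 receptor genes, 8 windows in all, and no other receptor window held a GATA match. The letters GAGGAA, the core that PU.1 binds, had 2 matches in the Csf2ra window and 1 in the Csf3r window, beside 23.3% of all windows. TGTGGT, the RUNX letters, occurred in the Il21r window and in the downstream Il1rl1 window, beside 14.0%. TGANTCA, the AP-1 letters, occurred in none of the 8 windows, beside 6.75%. Which start site was used cannot be read from 3' tags, and a match is a description of these letters, not a bound site.

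Csf2rb was highest in the mast or basophil gate, at 126 CPM (WT) and 168 CPM (KO), followed by the monocyte or dendritic gate, at 42.9 CPM (WT) and 50.1 CPM (KO), and the granulocyte-monocyte gate, at 32.0 CPM (WT) and 44.9 CPM (KO). The last 2 had overlapping intervals in each library. The erythroid gate was lowest, at 3.14 and 2.17 CPM. KO over WT, the log2 ratio was 0.49 (95% interval 0.24 to 0.73) in the granulocyte-monocyte gate and 0.42 (95% interval 0.12 to 0.72) in the mast or basophil gate, and the interval included 0 in the monocyte or dendritic gate.

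By surface gate Csf2rb in WT was 19.4 CPM in CD150+CD48- cells, 22.8 in CD150-CD48- cells, 17.8 in CD150+CD48+ cells and 20.1 in CD150-CD48+ cells, with overlapping intervals between neighbours in that order of level. In KO it was 15.5 CPM in CD150+CD48- cells, 19.97 in CD150-CD48- cells, 15.9 in CD150+CD48+ cells and 26.0 in CD150-CD48+ cells, with the CD150-CD48+ gate above the rest. This gate's log2 ratio was 0.37 (95% interval 0.27 to 0.48). Among its cells that passed no lineage gate it was 0.11 (95% interval -0.029 to 0.25), at 17.3 and 18.6 CPM in WT and KO. CD34- cells of the gate held 26.6 and 41.5 CPM and CD34+ cells 19.0 and 23.6 CPM in WT and KO. In all LSK cells together Csf2rb stood at 19.8 CPM (WT) and 21.8 CPM (KO), a log2 ratio of 0.14 (95% interval 0.057 to 0.22), which became -0.060 without the mast, basophil and eosinophil cells. Csf2rb (chr15:78325800-78351001, GRCm38.p6) lies beside its near copy Csf2rb2 (chr15:78282507-78305721), the interleukin 3 specific beta chain of mice. The split of reads between these 2 is uncertain. Csf2rb2 was at 2.49 and 2.33 CPM over all LSK cells and at 20.5 and 26.9 CPM in the mast or basophil gate.

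Csf2ra (chr19:61217191-61228461), the alpha chain that binds GM-CSF, differed little among most gates. Its lowest lineage gate was the erythroid one, at 9.41 CPM (WT) and 11.5 CPM (KO), and its highest the monocyte or dendritic one, at 38.6 CPM (WT) and 48.5 CPM (KO). The other 5 lineage gates lay between 14.6 and 23.0 CPM, with overlapping intervals between neighbours. Surface gates in WT were likewise within counting error of their neighbours, from 17.8 to 21.7 CPM. Over all LSK cells Csf2ra stood at 18.1 CPM (WT) and 18.4 CPM (KO), a log2 ratio of 0.021 (95% interval -0.065 to 0.11). In the CD150+CD48- gate alone it was at 21.7 CPM (WT) and 15.1 CPM (KO), a log2 ratio of -0.52 (95% interval -0.87 to -0.18), and among the cells of that gate with no lineage gate at 22.0 and 21.5 CPM.

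Csf3r (chr4:126023441-126044975), the G-CSF receptor, was highest in the granulocyte-monocyte gate, at 22.5 CPM (WT) and 26.0 CPM (KO), with the HSC gate next at 12.7 CPM (WT) and 18.0 CPM (KO). Erythroid gate cells held 1.96 and 1.64 CPM. By surface gate the CD150-CD48+ cells were highest, at 16.5 CPM (WT) and 19.6 CPM (KO), and the other 3 gates lay between 6.91 and 10.5 CPM with overlapping intervals between neighbours. KO over WT, the log2 ratio was 0.027 (95% interval -0.071 to 0.13) over all LSK cells, 0.25 (95% interval 0.13 to 0.36) in CD150-CD48+ cells and 0.51 (95% interval 0.13 to 0.88) in the HSC gate. With the WT cluster make-up the value for all cells was 0.30.

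Csf1r, the CSF1 receptor of monocytes and macrophages (chr18:61105572-61131139, GRCm38.p6), was nearly absent from the HSC end and concentrated in the monocyte or dendritic gate. That gate held 97.5 CPM (WT) and 97.5 CPM (KO) and a Csf1r UMI in 46.7% of WT and 36.7% of KO cells. The granulocyte-monocyte gate followed at 20.8 and 22.1 CPM and the lymphoid gate at 19.2 and 13.8 CPM in WT and KO. HSC gate cells held 0.905 and 1.03 CPM, from 10 and 6 UMIs. In the CD150+CD48- gate there were 3 WT and 13 KO UMIs, a log2 ratio of 2.26 (95% interval 0.40 to 4.72), where the 8 neutrophil markers summed to 7.73 and 366 CPM, whose part in this value was not tested. Of the 13 KO UMIs, 46.2% came from 1 cell, which the counting interval does not take into account. The cells of the gate that passed no lineage gate held 0 WT and 1 KO Csf1r UMIs. CD150-CD48+ cells held 15.2 CPM (WT) and 15.02 CPM (KO).

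In the monocyte or dendritic gate the KO over WT log2 ratio of Csf1r was -0.00026 (95% interval -0.28 to 0.28). In the lymphoid gate Csf1r was lower in KO, with -0.48 (95% interval -0.87 to -0.10). In the whole LSK population Csf1r stood at 10.6 CPM (WT) and 9.36 CPM (KO), a log2 ratio of -0.18 (95% interval -0.30 to -0.067), and at 0.0021 without the erythroid gate cells.

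Il6st (chr13:112464070-112506860), which encodes gp130, the signalling chain shared by the interleukin 6 family, had 1142 WT and 858 KO UMIs. In WT it was 12.8 CPM in CD150+CD48- cells, 8.02 in CD150-CD48- cells, 6.02 in CD150+CD48+ cells and 8.32 in CD150-CD48+ cells, highest at the HSC end with no overlap with the next gate. In KO it was 7.55 CPM in CD150+CD48- cells, 4.93 in CD150-CD48- cells, 6.15 in CD150+CD48+ cells and 10.1 in CD150-CD48+ cells, with overlapping intervals between neighbours. By lineage gate the HSC cells held 13.6 and 14.8 CPM, the lymphoid cells 12.4 and 18.0 CPM and the erythroid cells 1.37 and 1.33 CPM in WT and KO. KO over WT, the log2 ratio was -0.76 (95% interval -1.24 to -0.29) in CD150+CD48- cells and -0.032 among those with no lineage gate, but 0.12 (95% interval -0.28 to 0.51) in the HSC gate, and 0.54 (95% interval 0.15 to 0.93) in the lymphoid gate. For the sum of all LSK cells it was 0.026 (95% interval -0.10 to 0.15).

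**Figure D4:**
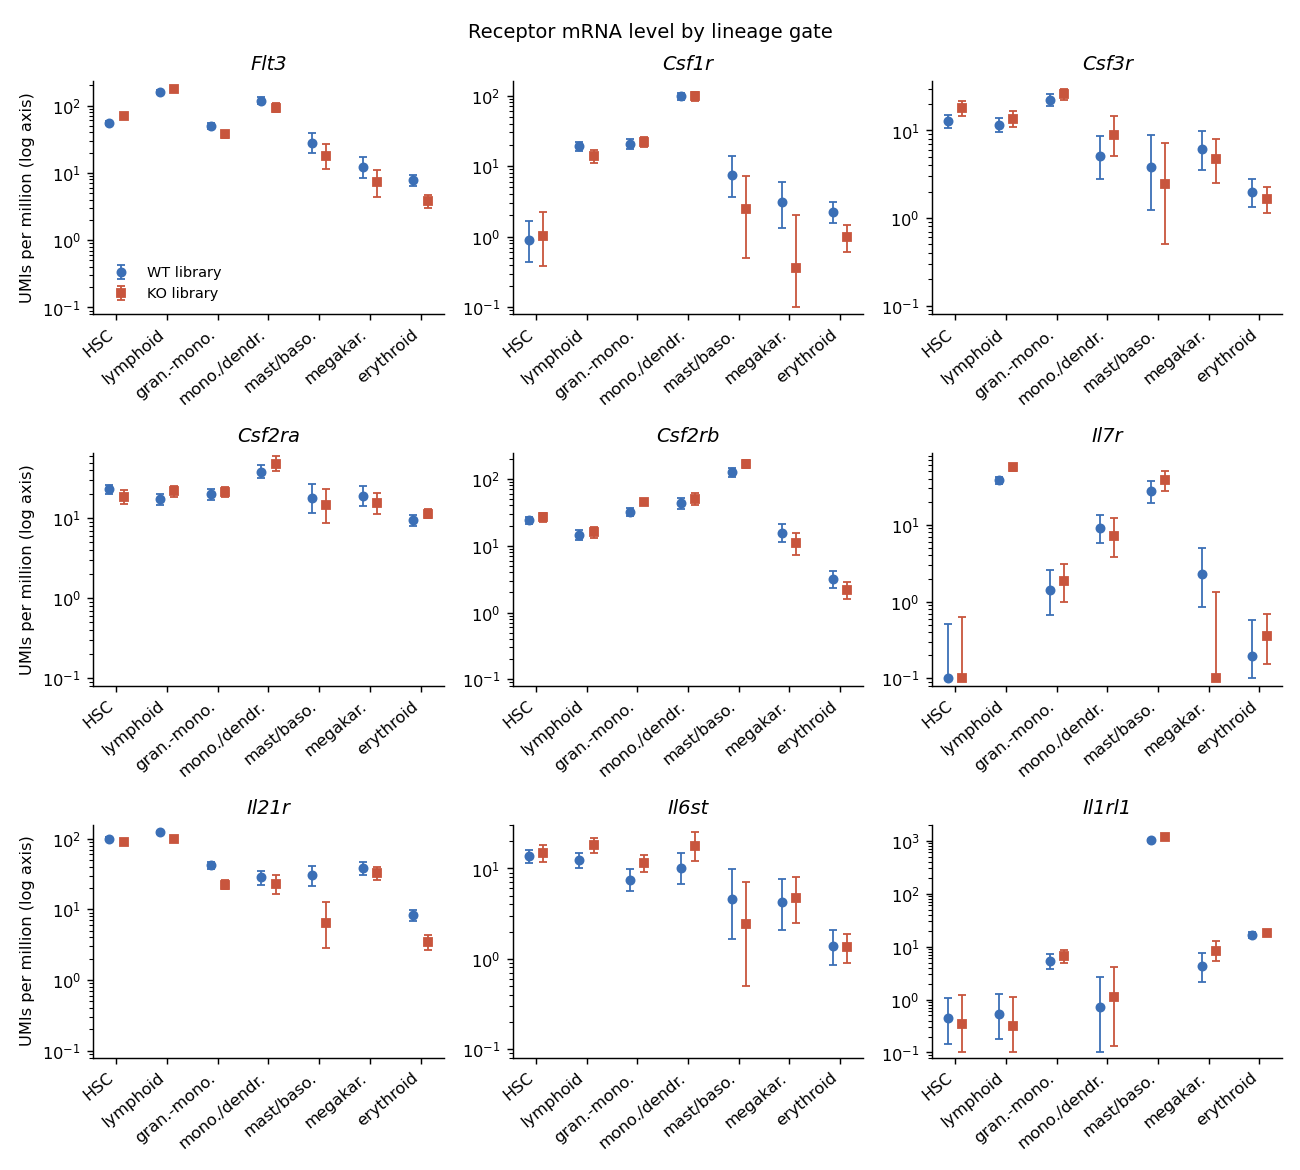
Level of each receptor gene in CPM (y axis, log scale, values under 0.1 drawn at 0.1) in the 7 lineage gates (x axis), for the WT (blue circles) and KO (red squares) libraries, with exact Poisson 95% intervals. Il7r peaks in the lymphoid gate, Csf1r in the monocyte or dendritic gate, Csf3r in the granulocyte-monocyte gate, and Csf2rb and Il1rl1 in the mast or basophil gate, in both libraries.

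Counted together in the end gates of the surface map, the receptors gave these numbers. In the CD150+CD48- gate, 7 of the 9 had a mean of at least 5 CPM, and 5 were at least 20% lower in KO (Flt3, Csf2ra, Csf2rb, Il21r and Il6st) and 1 at least 25% higher (Il1rl1). Of all 9670 genes at that level in the gate, 20.3% were that much lower and 18.6% that much higher, so this small gate holds many such differences among all genes. The gate held 15 WT and 48 KO erythroid gate cells, with erythroid markers at 232 and 843 CPM. Among its 157 WT and 65 KO cells that passed no lineage gate, the log2 ratios of the 5 lower receptors were -0.19 for Flt3, -0.032 for Csf2ra, 0.024 for Csf2rb, -0.25 for Il21r and -0.032 for Il6st. None of the 5 was past the 20% limit there. In the CD150-CD48+ gate, 9 of 9 were measured, with Il21r past the lower and Csf2rb past the upper limit, beside 1.04% lower and 7.85% higher of 9144 genes. Among the 2474 WT and 995 KO cells of this gate that passed no lineage gate, the log2 ratios were -0.26 for Il21r and 0.11 for Csf2rb, neither past its limit.

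From CD150+CD48- to CD150-CD48+ cells, 4 receptors were at least 2-fold higher in WT (Flt3, Csf1r, Il7r and Il1rl1) and none was that much lower, among genes with 5 CPM in either gate. Of all 9919 such genes in WT, 2.21% were that much higher and 8.16% that much lower. In WT, Csf1r, Il7r and Il1rl1 reached 5 CPM only in the CD150-CD48+ gate, so under this filter they could only be called higher. In KO the same held for Csf1r and Il7r. The filter thus set part of these counts in advance. The Il1rl1 direction in WT turned, to a log2 ratio of -1.91, when the gates used the top and bottom of 3 equal parts of each tag. In KO the 4 higher receptors were Flt3, Csf1r, Csf3r and Il7r, with none lower, beside 2.97% higher and 5.38% lower of 9833 genes. Il1rl1 was not among them in KO, where its CD150+CD48- level was 9.60 CPM, beside 1.62 CPM in WT, from 75 and 14 UMIs. The 15 WT and 48 KO erythroid gate cells of that gate stand beside this value, and its cells that passed no lineage gate held 1 WT and 3 KO Il1rl1 UMIs.

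**Figure D5:**
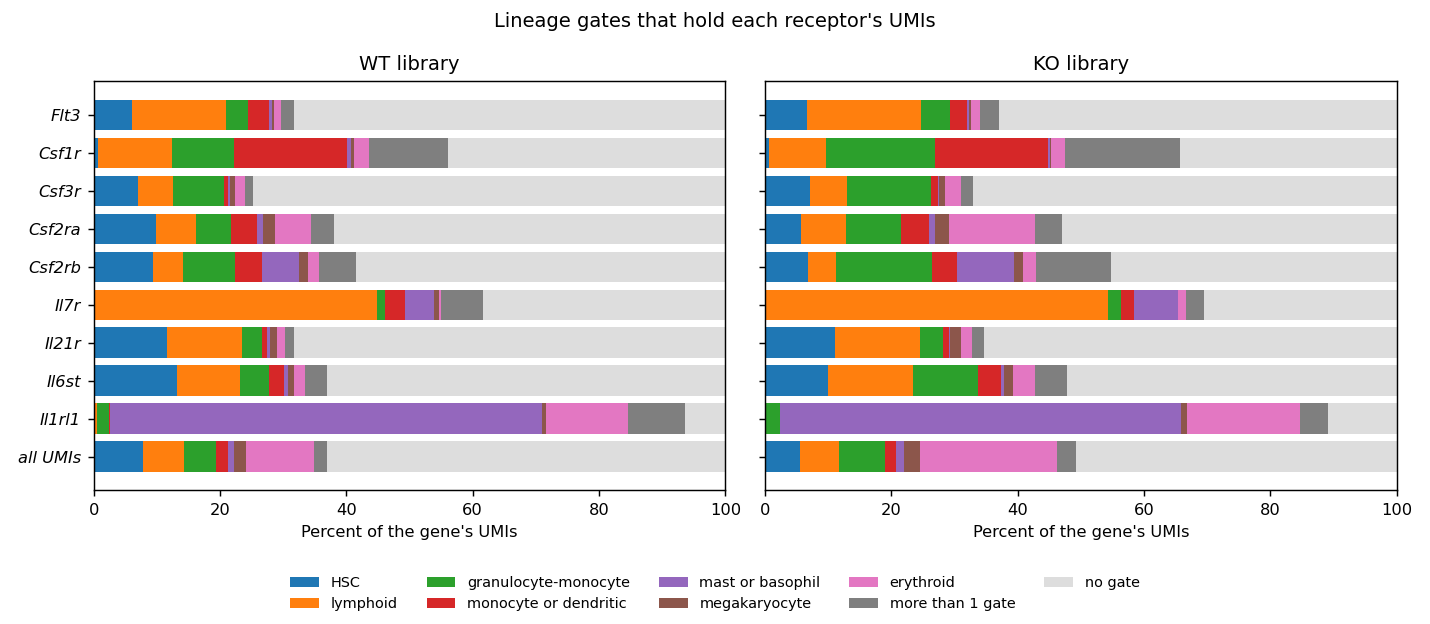
Percent of each receptor's UMIs (x axis) that fall in each lineage gate (colours), for the 9 genes and for all gene UMIs (bottom bar), in the WT (left) and KO (right) libraries. The mast or basophil gate holds 68.5% and 63.4% of Il1rl1 and the lymphoid gate 44.8% and 54.3% of Il7r, while the erythroid gate holds 10.8% and 21.6% of all UMIs.

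At 8000 UMIs per cell, single cells mostly held UMIs of few of these receptors. The mean number of the 9 genes with a UMI was 1.41 and 1.30 in WT and KO. It was highest in the mast or basophil gate, at 2.16 and 2.12, and the lymphoid gate, at 2.04 and 2.17, and lowest in the erythroid gate, at 0.329 and 0.432. These means depend on the depth. They were not computed for unthinned cells, of which a larger share held a UMI of each of the 9 genes in both libraries. Some pairs shared cells more often than others. An Il7r UMI was found in 5.40% (4.47 to 6.46) of the 2092 WT cells with Flt3 against 1.84% (1.41 to 2.37) of the rest, and in 7.55% (5.94 to 9.42) of the 941 KO cells with Flt3 against 2.94% (2.20 to 3.85) of the rest. It was also found in 13.3% (8.34 to 19.8) of WT cells with Il1rl1 against 2.95% (2.50 to 3.44) of the rest. In KO these shares were 10.4% (6.16 to 16.1) and 4.18% (3.43 to 5.04). The pairs given here are not all of those that shared cells. Il1rl1 and Csf2rb also shared cells: Csf2rb was found in 45.3% (37.2 to 53.7) of the 150 WT cells with Il1rl1 against 14.3% (13.4 to 15.3) of the rest, and in 34.8% (27.5 to 42.6) of the 164 KO cells with Il1rl1 against 13.5% (12.2 to 14.9) of the rest. Flt3 and Il1rl1 kept apart, since Flt3 was found in 6% (2.78 to 11.1) of the 150 WT cells with Il1rl1 against 40.1% (38.8 to 41.4) of the rest, and in 7.32% (3.84 to 12.4) of the 164 KO cells with Il1rl1 against 37.0% (35.1 to 38.9) of the rest. These are shares over cells of 1 library each, and cells are not replicates. Barcodes that hold 2 cells were not removed, and their part in these shares was not tested.

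The genes most like each receptor were ranked by Pearson r of log2(CPM + 1) over 34 points, 17 clusters in each of the 2 libraries, among 5291 genes. The points share libraries and depth, so r is a description. Flt3 was most like Gpr171 (0.97), Lsp1 (0.97) and Ifi203 (0.95). Csf1r was most like Irf8 (0.90), Bex6 (0.87) and Clta (0.87), of which Irf8 encodes a transcription factor of monocyte and dendritic cells. Il21r was most like Hoxa7 (0.97), Epsti1 (0.97) and 4931406C07Rik (0.96), of which Hoxa7 is a homeobox gene of early progenitors. Il7r followed Pip4k2a (0.86), Arhgap9 (0.83) and Rbms1 (0.77), and Il1rl1 followed Adk (0.93), Arpc1a (0.90) and Selenof (0.90). For Csf3r they were Plppr3 (0.91), Fkbp1a (0.90) and Vav3 (0.90), for Csf2ra Tnfrsf1a (0.87), Pik3cd (0.84) and Flna (0.83), for Csf2rb Man2b1 (0.93), Dhrs7 (0.91) and Sptlc2 (0.90), and for Il6st Ifi203 (0.94), Mndal (0.93) and Tpd52 (0.93).

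The other genes of cytokine signalling were counted by the same limits over all LSK cells. Of 41 other receptor chains, 12 had at least 20 CPM in either library, and 1 was past the upper limit and 0 past the lower. The higher one was Tgfbr1, a TGF-beta receptor kinase, at 17.2 CPM (WT) and 22.0 CPM (KO), log2 ratio 0.36 (0.27 to 0.44). It reached 20 CPM only in KO, so under this cut it could only be called higher. Crlf2, the receptor chain for TSLP, which pairs with the interleukin 7 receptor chain, was at 58.8 CPM (WT) and 49.6 CPM (KO), log2 ratio -0.25 (-0.30 to -0.20), and Il11ra1, which signals through gp130, at 23.6 CPM (WT) and 18.9 CPM (KO), log2 ratio -0.32 (-0.40 to -0.24). Il2rg, the gamma chain that pairs with the Il7r and Il21r products, was at 36.4 CPM (WT) and 31.8 CPM (KO), log2 ratio -0.19 (-0.26 to -0.13). Il2rg falls outside the rule for named genes and was added as the partner of 2 receptors after its values were seen.

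Among 11 JAK and STAT genes 7 were measured at this level, none past either limit. Stat5b, a STAT used by many of these receptors, was at 22.5 CPM (WT) and 27.9 CPM (KO), log2 ratio 0.31 (0.24 to 0.38), Stat5a at 18.5 CPM (WT) and 21.3 CPM (KO), log2 ratio 0.21 (0.13 to 0.29), and Jak1 at 83.1 CPM (WT) and 92.6 CPM (KO), log2 ratio 0.16 (0.12 to 0.20). Of 22 feedback and target genes 10 were measured, also none past a limit. Mcl1, a survival gene downstream of cytokines, was at 113 CPM (WT) and 132 CPM (KO), log2 ratio 0.23 (0.20 to 0.26), Spred1, an inhibitor of the Ras pathway, at 20.4 CPM (WT) and 24.1 CPM (KO), log2 ratio 0.24 (0.16 to 0.32), and the feedback inhibitor Socs2 at 24.8 CPM (WT) and 21.7 CPM (KO), log2 ratio -0.19 (-0.27 to -0.11). None of 17 ligand genes reached 20 CPM, and 6 had no UMI in either library, among them Il21 and Il33, the ligands of the Il21r and Il1rl1 products, named here after their values were seen. With a mean of at least 5 CPM, 20 other receptor chains were measured with 2 past the upper limit (Tgfbr1 and Epor) and 0 past the lower, 11 JAK and STAT genes with 0 past either, and 19 feedback and target genes with 0 past the upper and 1 past the lower. That one was Socs1, a feedback inhibitor named for being the single such gene, at 7.09 CPM (WT) and 5.54 CPM (KO), log2 ratio -0.36 (-0.51 to -0.21). Medians over genes with a mean of 5 CPM were -0.031 for the other receptor chains, 0.071 for the JAK and STAT genes and 0.086 for the feedback and target genes, beside 0.067 for all genes of that level.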

How the data were processed

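The deposited matrices hold raw UMI counts per gene and antibody tag, made with Cell Ranger 4.0.6 on mm10 per the submitters' processing notes; Seurat and DESeq are named there without a step. The authors' deposited tag list (other text) gave the tag sequences. Barcodes with at least 8178 (WT) or 9992 (KO) gene UMIs, 500 genes and at most 10% mitochondrial UMIs were kept as cells. Doublets were kept, since Scrublet called 0 WT and 6 KO cells (0.224%). UMIs were summed over cells and divided by all gene UMIs (CPM), with exact Poisson intervals, exact binomial intervals for ratios and Clopper-Pearson intervals for shares. Shares used cells thinned to 8000 UMIs. Surface gates used Otsu cuts, and lineage gates a number of markers set after the marker counts were seen: at least 6 for HSC, 5 for granulocyte-monocyte and monocyte or dendritic, 4 for lymphoid and mast or basophil, and 3 for megakaryocyte and erythroid. Leiden clusters (resolution 1, 2000 variable genes, 30 components) came from scanpy 1.11.5. Members and lists were chosen with earlier results of these data known. Named genes were the 9 receptors, Csf2rb2, up to 3 genes per list with the interval bound farthest from 0, and the 3 most alike genes per receptor. Empty droplets were barcodes with 10 to 100 UMIs. Promoters are RefSeq's (GRCm38.p6). The ratio code was tested on simulated data.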

Additional observations from a re-analysis of the deposited data

How the results depend on the processing

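With 1 library per genotype no sample could be left out, and intervals cover counting error only. No paired analysis was possible because each genotype is 1 library and the result comes from no test. The count of receptors at least 25% higher in KO (1) was 2 in cells thinned to 1 depth, 2 at WT cluster weights, 2 without erythroid gate cells and 6 with free RNA subtracted at its upper bound. The count at least 20% lower (1) was 2 in thinned cells and 0 at WT cluster weights, where Il21r was -0.27. The median (log2 0.026) was 0.59 with free RNA subtracted, 0.17 at WT surface by lineage weights and 0.19 without erythroid gate cells. No share or median of all genes was computed under any of these alternatives, so the counts and medians given for them have no background. The parts subtracted differed, at 43.5% of WT and 28.5% of KO UMIs, and each is an upper bound, of which the WT one is loose. The KO empty droplets behind them held from 1 (Csf3r) to 26 (Il21r) UMIs of each receptor. Flt3 changed sign to 0.14 with free RNA subtracted. At WT cluster weights Flt3 was 0.018 and at surface by lineage weights 0.011, almost no difference. Csf1r was 0.026 with free RNA subtracted and 0.00211 without erythroid gate cells, also almost no difference. Csf2rb changed sign to -0.060 without mast, basophil and eosinophil cells. The cause was not tested. Il21r stayed lower and Il1rl1 higher under all 11 alternatives, from -0.89 to -0.27 and from 0.19 to 1.18. The alternative with no filter on low counts leaves these ratios unchanged by construction, so it is no check of them. CD150-CD48+ over CD150+CD48-, Il1rl1 in WT reversed to -1.91 with only the highest and lowest cells of each tag gated (3 equal parts per tag). For the same gates Il21r in KO was -0.017, almost no difference, with a cut from 2 Gaussian components. The weights by surface and lineage, the cells left out and stricter lineage gates were chosen after seeing the data. Of 33 lineage gate ratios recomputed for Flt3, Il21r and Il1rl1, 28 stayed within their counting interval. Unthinned shares of cells with a UMI were higher for all 9 genes in both libraries.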

Other observations

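Among the genes of these pathways under 20 CPM, outside the rule for named genes and described after their values were seen, the libraries differed in both directions. The share of all genes under 20 CPM whose counting interval left out 0 was not computed. The counts below therefore have no background to be read against. Of 29 other receptor chains, 3 had a counting interval above 0 and 7 below 0. Epor, the erythropoietin receptor, was 1 of the 3, at 10.1 CPM (WT) and 18.2 CPM (KO), log2 ratio 0.85 (0.75 to 0.95), beside erythroid gate cells that gave 10.8% of WT and 21.6% of KO UMIs. Il18r1, an interleukin 18 receptor chain, was at 0.368 CPM (WT) and 0.939 CPM (KO), log2 ratio 1.35 (0.85 to 1.87). On the lower side, Il13ra1, an interleukin 13 receptor chain, was at 0.728 CPM (WT) and 0.460 CPM (KO), log2 ratio -0.66 (-1.19 to -0.16), and Lepr, the leptin receptor, had 17 WT and 3 KO UMIs. Of 17 ligands, 5 had an interval above 0 and 1 below 0. Osm was at 1.14 CPM (WT) and 2.92 CPM (KO), log2 ratio 1.36 (1.08 to 1.64) and Csf1 at 2.51 CPM (WT) and 3.92 CPM (KO), log2 ratio 0.64 (0.43 to 0.85), while Il6 rested on 35 and 75 UMIs, log2 ratio 1.54. The lower ligand was Il7, the ligand of the Il7r product, with 59 and 23 UMIs, log2 ratio -0.92 (-1.68 to -0.20). Levels of these genes at equal cell make-up were not computed.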
